A study of Drosophila melanogaster with 10 samples.

Results

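Semaphorins, plexins, *Ephrin* and *Eph* were followed through the development of the direction-selective T4/T5 neurons of the *Drosophila* visual system. The genes were chosen by symbol, *Sema1a*, *Sema1b*, *Sema2a*, *Sema2b*, *Sema5c*, *PlexA*, *PlexB*, *Eph* and *Ephrin*, which are 9 of the 17757 genes listed in the count tables. T4/T5 neurons were labelled in pupal brains by membrane-targeted GFP (*UAS-mCD8::GFP*) under the split-Gal4 line *SS00324*, sorted by fluorescence and profiled by droplet-based scRNA-seq 24 to 72 h after puparium formation (APF), every 12 h. Each of the 5 stages (24, 36, 48, 60 and 72 h) had 2 libraries. All groups carried the same driver and reporter and no mutation or treatment was applied, so stages and neuron subtypes are the only groups. The driver marks T4 and T5 together, and the subtypes had to be told apart by their RNA.

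Semaphorins are guidance ligands, secreted or held in the membrane, that act on growing axons and dendrites through plexin receptors. In flies the transmembrane semaphorins Sema1a and Sema1b bind PlexA, the secreted semaphorins Sema2a and Sema2b bind PlexB, and Sema1a can also act as a receptor itself. Ephrin is the single fly ligand of the single fly Eph receptor tyrosine kinase, and both are membrane-bound, so that signalling needs cell contact. In the optic lobe these families are known for layer choice, spacing and the sorting of neurites. T4 and T5 neurons each exist as subtypes a, b, c and d, whose dendrites point in different directions and whose axons end in different layers of the lobula plate.

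The 10 libraries held 72871 barcodes, of which 62584 passed the filters on stress and mitochondrial genes and 50611 were neither marked as doublets nor left unnamed. Cells were clustered in each stage without the 9 genes and without their partner genes, and clusters were named from marker genes of T4 against T5 and of a, b, c and d. The names mean T4a-like and so on, and are written below as T4a to T5d. UMIs were summed per library and class, which gave 80 sums of 137 to 1642 cells and of 1025818 to 8370746 UMIs. *SoxN*, *Sox102F* and *Lim1*, which encode transcription factors of T4/T5 neurons, were present in every sum. The glial marker *repo* reached at most 1.70 CPM (UMIs of the gene per 1e6 UMIs of the sum) and the haemocyte marker *He* was at 0 in all 80 sums, whereas *nrv2*, also listed as a glial marker, ranged between 24.3 and 547.5 CPM. Pairs of libraries shared at most 53 barcodes. Levels below are CPM. Differences are log2 fold changes ± SE tested in edgeR by quasi-likelihood, with the library as a block where classes were compared and with p adjusted after Benjamini-Hochberg over all tested genes. A difference passes at an adjusted p under 0.05, and is called where it is also at least 2-fold.

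Of the 9 genes 8 had enough UMIs to be among the 7200 genes tested between classes. In the stage means the highest class exceeded the lowest by up to 11.3 times for *Sema2b*, 1.65 times for *Ephrin*, 1.60 times for *Sema1a* and 1.56 times for *Sema2a*, and by up to 1.36 times for *PlexB*, 1.23 times for *PlexA* and 1.15 times for *Eph*. The 5 axes compared were T4 against T5, a,b against c,d, b,c against a,d, a against b and c against d. Tested at each of the 5 stages for the 8 genes, they gave 200 values, of which 56 passed, against a background of 12.3% of all gene and contrast combinations. Of the 200, 5 were called, against a background of 2.53%, and all 5 were values of *Sema2b*. The labels only number the libraries of a stage, and the methods of the study call them biological replicates. Which animals or sorts they came from is not given in the sources used here, so p-values apply to these libraries only. For contrasts between stages they measure the spread between whole libraries. For contrasts between classes the library block removes differences in level between libraries. Those p-values measure the spread that is left among the class sums within libraries. The classes were formed by clustering the same cells whose levels are compared.

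*Sema2b*, on chromosome 2R (16386524 to 16431758 in BDGP6.54), encodes a secreted ligand of PlexB. Its level over all T4/T5-like cells of a library was 388 and 398 CPM at 24 h, 225 and 189 CPM at 36 h, 63.2 and 50.1 CPM at 48 h, 46.5 and 52.3 CPM at 60 h, and 94.9 and 68.0 CPM at 72 h APF. The libraries of 24 h did not overlap with those of any later stage. *Sema2b* fell by 1.67 ± 0.26 on the log2 scale for 48 h against 36 h (edgeR adjusted p = 0.0032) and by 1.69 ± 0.26 for 72 h against 24 h (adjusted p = 0.00067). Its change for 72 h against 60 h, 0.89 ± 0.25, did not pass (adjusted p = 0.068).

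The distribution of *Sema2b* over the subtypes turned round between 48 and 60 h APF. Averaged over classes, *Sema2b* was at 341 and 340 CPM in the a,b classes of the 2 libraries at 24 h APF, against 432 and 438 CPM in the c,d classes. At 36 h APF it was at 182 and 160 CPM in a,b, against 267 and 222 CPM in c,d. At 48 h APF it was at 42.9 and 32.3 CPM in a,b, against 87.7 and 70.6 CPM in c,d. Thus the a,b average was the lower one in both libraries of all 3 early stages. Single classes did not all follow it. In the stage means of 24 h APF T4a had 433.5 CPM, above T5c (404.3 CPM) and T5d (397.3 CPM). In those of 48 h APF T4a (61.15 CPM) was level with T4c (62.17 CPM). At 60 h APF *Sema2b* was at 76.3 and 81.0 CPM in a,b, against 11.7 and 18.9 CPM in c,d. At 72 h APF it was at 117 and 77.5 CPM in a,b, against 67.6 and 51.5 CPM in c,d. The a,b average was therefore the higher one in both libraries of both late stages. At 72 h APF single classes overlapped between the groups. In the stage means T5c had 153 CPM, above T5a (109 CPM) and T4a (94.2 CPM), and T4b had 26.6 CPM, below T5d (42.0 CPM).

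**Figure D1:**
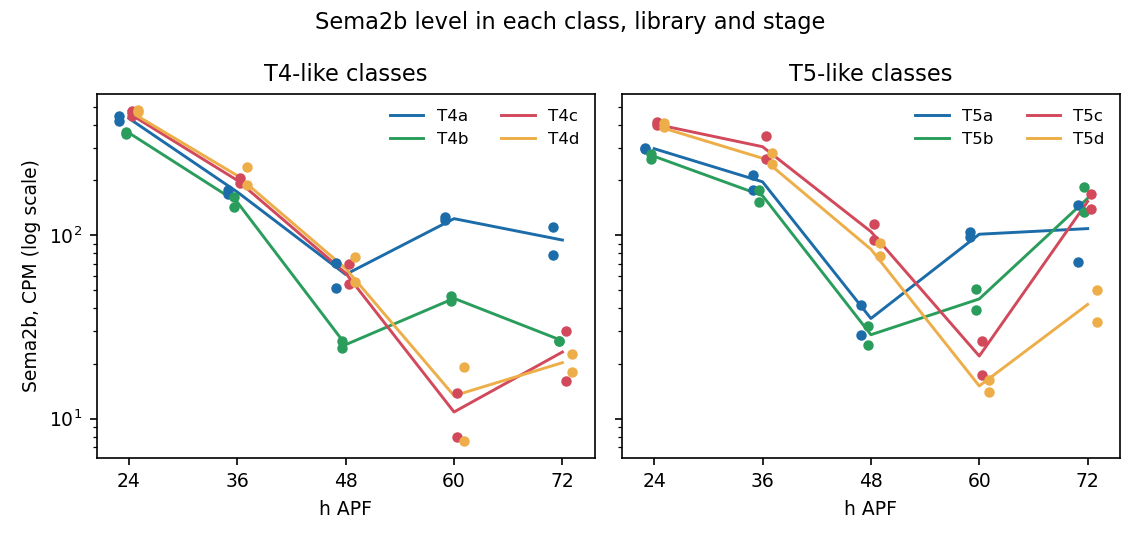
*Sema2b* in CPM on a log axis (y) against stage in h APF (x), for the T4-like classes on the left and the T5-like classes on the right. Each point is the sum of 1 class in 1 library and lines join the means of the 2 libraries. At 48 h APF the a and b classes lie below c and d in the T5 panel, while in the T4 panel T4a (71.0 and 51.3 CPM) is level with T4c (69.8 and 54.6 CPM). At 60 h APF a and b lie above c and d in both panels, and T5b and T5c lie far above T4b and T4c at 72 h APF.

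In order of stage, the fitted log2 difference of *Sema2b* in a,b over c,d was −0.40 ± 0.03, −0.50 ± 0.05, −1.13 ± 0.06, 2.33 ± 0.10 and 1.02 ± 0.08, and all 5 passed (edgeR, adjusted p between 8.3e-32 and 1.0e-14). *Sema2b* was called lower in a,b at 48 h APF, with 3.25% of all tested genes, and called higher at 60 h APF, with 2.79%, and at 72 h APF, with 2.36%. The change between stages was tested directly as the mean axis of 60 and 72 h minus that of 24, 36 and 48 h APF, and was 2.35 ± 0.07 for *Sema2b* (adjusted p = 1.1e-40). This value stayed between 2.15 and 2.52 in all 19 alternatives, including each library left out. The sign of the axis changed between 48 and 60 h APF within T4 and within T5 in both libraries of each stage.

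At 60 h APF no a or b class overlapped with a c or d class within either library for *Sema2b*. T4a was at 121 and 125 CPM and T5a at 98.2 and 104 CPM, the highest levels of that stage. T4b was at 47.0 and 43.6 CPM and T5b at 39.2 and 50.8 CPM. T4c, T4d, T5c and T5d lay between 7.54 and 26.5 CPM. As sums of a class, a lay above b and b above c and d at this stage, and a over b was 1.33 ± 0.09 on the log2 scale (edgeR adjusted p = 2.5e-20), where 0.778% of all tested genes were called higher in a. T4c over T4d and T5c over T5d were not separated, with a c over d difference of 0.11 ± 0.21 (adjusted p = 0.94).

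This order did not hold over the clusters that made up the T4 classes at 60 h APF. Of the 2 clusters named T4a, 1 (72 and 61 cells) had 239.4 and 355.2 CPM of *Sema2b* and the other (311 and 281 cells) 94.2 and 79.7 CPM. Among the clusters named T4b, 1 (110 and 108 cells) had 2 and 0 UMIs of *Sema2b*, and another (79 and 76 cells) had 101.2 and 89.4 CPM. The T4b sums thus joined a cluster with hardly any *Sema2b* to 1 at the level of the larger T4a cluster. The largest cluster named T4b (113 and 115 cells) had 54.0 and 42.8 CPM. Values of the smallest T4b clusters are not given here. In T5 the clusters of a class lay closer together, with 94.8 to 106.9 CPM in the 2 named T5a and 38.9 to 59.8 CPM in the 2 named T5b.

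At 72 h APF *Sema2b* separated T4 from T5. It was at 47.4 and 34.6 CPM in the T4 classes, averaged over a to d, against 137 and 94.4 CPM in the T5 classes. The difference was −1.64 ± 0.08 on the log2 scale (edgeR adjusted p = 4.3e-29), on an axis where 2.71% of all tested genes were called lower in T4. The gap was widest in the b and c classes. T4b was at 26.6 CPM in both libraries, against 184 and 134 CPM in T5b, and T4c was at 30.1 and 16.1 CPM, against 167 and 138 CPM in T5c. For a the classes overlapped between libraries, since T4a was at 110 and 77.9 CPM and T5a at 146 and 71.6 CPM. T4d had 22.6 and 17.9 CPM, against 50.3 and 33.7 CPM in T5d. At 24 h APF the direction was the opposite one, with 433 and 434 CPM in T4, against 340 and 344 CPM in T5 (0.36 ± 0.03, adjusted p = 1.2e-13). At 36 h APF it was at 194 and 173 CPM in T4, against 255 and 209 CPM in T5 (−0.29 ± 0.05, adjusted p = 1.2e-06). At 48 and 60 h APF the T4 over T5 difference of *Sema2b* did not pass (−0.13 ± 0.06 and −0.22 ± 0.12, adjusted p = 0.14 and 0.13). The T4 over T5 axis differed between late and early stages by −0.91 ± 0.08 (adjusted p = 1.4e-16).

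The subtype axes of *Sema2b* also differed between T4 and T5, averaged over the stages. The difference in T4 minus that in T5 was 0.57 ± 0.07 for a,b over c,d, −0.70 ± 0.07 for b,c over a,d, 0.74 ± 0.08 for a over b and −0.66 ± 0.11 for c over d, and all 4 passed (edgeR, largest adjusted p = 3.9e-05). Over the 4 axes and 8 genes 5 of 32 such values passed, against 2.62% of all gene and axis combinations. Without the library term only 2 of these 5 passed, those of *Sema2b* for a,b over c,d and for b,c over a,d. The level also differed between clusters of the same class at 72 h APF. Of the 2 clusters named T5b, 1 had 240.8 and 154.5 CPM of *Sema2b* and the other 148.8 and 114.2 CPM, and neither overlapped with a T4b library.

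*Sema2a* (2R, 16500178 to 16533459) encodes the other secreted semaphorin and lies on the same strand of the same chromosome as *Sema2b*. Its levels went the opposite way over time, with 111 and 99.0 CPM at 24 h, 130 and 105 CPM at 36 h, 170 and 144 CPM at 48 h, 228 and 223 CPM at 60 h, and 254 and 207 CPM at 72 h APF. The 60 and 72 h libraries all lay above those of the earlier stages. *Sema2a* rose by 1.72 ± 0.22 on the log2 scale for 72 h against 24 h APF (edgeR adjusted p = 0.00024). No step between neighbouring stages passed on its own.

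Among the subtypes *Sema2a* had no passing difference between a,b and c,d at 24 and 36 h APF and became unequal at the late stages. At 60 h APF it was at 254 and 244 CPM in a,b, against 195 and 198 CPM in c,d. No a or b class overlapped with a c or d class at that stage. The fitted difference was 0.37 ± 0.03 at 60 h (adjusted p = 6.4e-15) and 0.28 ± 0.03 at 72 h APF (adjusted p = 1.5e-10), and −0.11 ± 0.03 at 48 h APF (adjusted p = 0.0089). The 48 h value did not pass without replicate 1 of that stage. The late axis exceeded the early one by 0.36 ± 0.03 (adjusted p = 5.1e-15). The highest class was T4a at 60 h APF, with 282 and 271 CPM, and at 72 h APF, with 305 and 239 CPM. *Sema2a* was higher in a than in b by 0.27 ± 0.04 at 60 h (adjusted p = 3.9e-06). None of these *Sema2a* values reached 2-fold. Both secreted semaphorins were thus higher on average in a,b than in c,d at 60 and 72 h APF. Between T4 and T5 *Sema2a* had 1 passing value, −0.11 ± 0.03 at 72 h APF (adjusted p = 0.0069), which did not pass without either library of 72 h, with cells thinned to 2000 UMIs or without the replicate block.

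*Sema1a* (2L, 8542147 to 8672041) encodes the transmembrane semaphorin that binds PlexA and can signal in reverse. All 80 sums held at least 996 UMIs of it, and its level ranged between 738 and 2650 CPM with a median of 1367 CPM. Over all T4/T5-like cells it was at 1239 and 1424 CPM at 24 h, 1277 and 947 CPM at 36 h, 1125 and 1162 CPM at 48 h, 2033 and 2193 CPM at 60 h, and 1741 and 1491 CPM at 72 h APF. Both libraries of 60 h lay above all others. *Sema1a* rose by 1.04 ± 0.23 on the log2 scale for 60 h against 48 h APF (edgeR adjusted p = 0.017). With any 1 of the 4 libraries of these stages left out the adjusted p reached up to 0.13, so this call needed both libraries of each stage. For 72 h against 24 h APF it passed at 0.86 ± 0.23 (adjusted p = 0.013) but not when scaled to total UMIs (0.28 ± 0.20, adjusted p = 0.25), and not without 24 h replicate 1 or 72 h replicate 1.

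Between the classes *Sema1a* differed along a,b against c,d and along T4 against T5, in both cases by less than 2-fold. At 36 h APF it was at 1036 and 789 CPM in a,b, against 1518 and 1123 CPM in c,d. No classes overlapped between the groups within a library, and the difference was −0.54 ± 0.02 (edgeR adjusted p = 5.4e-35). At 24 h APF no difference passed, at 48 h APF it was −0.25 ± 0.02, and at the late stages the direction was the reverse, with 0.09 ± 0.02 at 60 h and 0.21 ± 0.02 at 72 h APF. The 60 h value did not pass without replicate 1 of 60 h. The late axis exceeded the early one by 0.43 ± 0.02 (adjusted p = 3.8e-33), the same sign as in *Sema2b* and *Sema2a*.

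From 36 h APF on *Sema1a* was lower in T4 than in T5, with a smaller difference at 36 h (−0.10 ± 0.02) than at the later stages. At 48 h APF it was at 979 and 1042 CPM in T4, against 1281 and 1310 CPM in T5. At 60 h APF it was at 1770 and 1917 CPM in T4, against 2225 and 2388 CPM in T5. At 72 h APF it was at 1548 and 1289 CPM in T4, against 1922 and 1651 CPM in T5. In both libraries of 60 and of 72 h APF the 4 T4 classes lay below the 4 T5 classes without overlap. The difference of T4 over T5 was 0.07 ± 0.02, −0.10 ± 0.02, −0.36 ± 0.02, −0.31 ± 0.02 and −0.36 ± 0.02 in order of stage, and all 5 passed (edgeR). The 24 h value did not pass without replicate 2 of 24 h. The highest *Sema1a* sums of the whole series were T5b at 60 h APF, with 2472 and 2650 CPM, followed within that stage by T5a with 2299 and 2476 CPM. In T4 the a and b classes, at 1723 to 1885 CPM, were not the high ones at 60 h APF, since T4c and T4d had 1805 to 1998 CPM. The a,b over c,d axis of *Sema1a* differed between T4 and T5 by −0.15 ± 0.02, averaged over the stages (adjusted p = 1.9e-10).

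**Figure D2:**
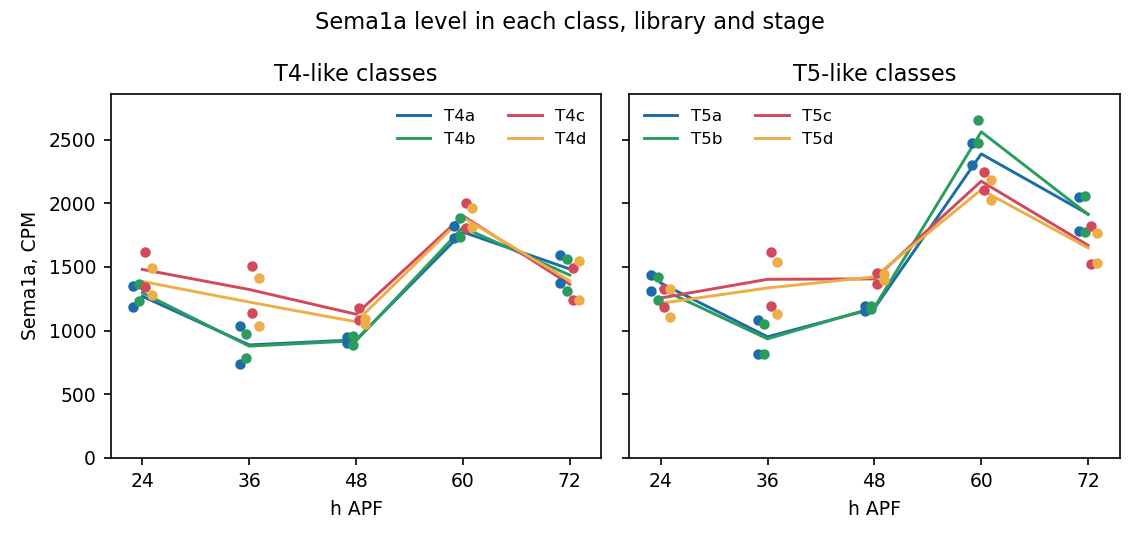
*Sema1a* in CPM (y, from 0) against stage in h APF (x), for the T4-like classes on the left and the T5-like classes on the right. Each point is the sum of 1 class in 1 library and lines join the means of the 2 libraries. At 36 h APF the c and d classes lie above a and b in both panels, and at 60 h APF T5b reaches 2472 and 2650 CPM while all T4 classes stay between 1723 and 1998 CPM.

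*Sema1b* (2R, 17672839 to 17683499), another transmembrane ligand of PlexA, was a minor transcript, with 5640 UMIs in all sums and 6.23 to 48.1 CPM. Its level was 33.0 and 33.4 CPM at 24 h, 34.5 and 23.6 CPM at 36 h, 18.7 and 18.3 CPM at 48 h, 25.5 and 24.9 CPM at 60 h, and 9.14 and 9.86 CPM at 72 h APF. Both libraries of 72 h lay below all others. It fell for 72 h against 60 h APF (−1.26 ± 0.21, edgeR adjusted p = 0.0070) and for 72 h against 24 h APF (−1.24 ± 0.21, adjusted p = 0.0010). The value for 72 h against 60 h did not pass without either library of 60 h (largest adjusted p = 0.059). None of the subtype axes of *Sema1b* passed at any stage.

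*Sema5c* (3L, 12067511 to 12081830), also a transmembrane semaphorin, had 28 UMIs among the 246879402 of all sums. It was at 0 in 60 of the 80 sums, where a count of 0 allows a level of up to 0.479 to 2.92 CPM, and its highest value was 1.11 CPM in T4c at 60 h APF. It could not be tested. Cells set aside before the classes were formed because their clusters carried glial markers held more of it, with 92 UMIs in 588 cells. Pooled over both libraries these cells had 84.5 CPM (52 UMIs) at 24 h and 21.9 CPM (9 UMIs) at 36 h APF. They had 105 CPM (15 UMIs) at 48 h, 172 CPM (10 UMIs) at 60 h and 27.3 CPM (6 UMIs) at 72 h APF. The differences between these stages rest on few UMIs and were not tested. The other cells set aside had 8 UMIs of *Sema5c* in 3343 cells.

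The plexins were present in all 80 sums at levels that changed little between classes. *PlexA* (chromosome 4, 1009895 to 1027101), the receptor of Sema1a and Sema1b, ranged between 233 and 482 CPM with a median of 311 CPM. It was at 309 and 389 CPM at 24 h, 451 and 290 CPM at 36 h, 254 and 300 CPM at 48 h, 344 and 346 CPM at 60 h, and 287 and 298 CPM at 72 h APF. The libraries of different stages overlapped, and no change between stages passed. The highest class exceeded the lowest by 1.07 to 1.23 times at any stage. *PlexA* was lower in T4 than in T5 on average (−0.09 ± 0.01, edgeR adjusted p = 3.2e-08) and at 72 h APF (−0.19 ± 0.03), where it had 269 and 281 CPM in T4, against 310 and 312 CPM in T5.

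*PlexB* (chromosome 4, 32478 to 43778), the receptor of the secreted semaphorins, ranged between 149 and 335 CPM with a median of 209 CPM. Its level was 209 and 254 CPM at 24 h, 309 and 183 CPM at 36 h, 256 and 173 CPM at 48 h, 189 and 208 CPM at 60 h, and 249 and 163 CPM at 72 h APF, with overlap between stages and no passing change. An antisense RNA annotated within the gene (asRNA:CR45124) had 160 UMIs in all sums, against 52031 UMIs of *PlexB*. At 24 h APF *PlexB* was at 231 and 280 CPM in a,b, against 183 and 228 CPM in c,d. No classes overlapped within a library, and the difference was 0.28 ± 0.03 (adjusted p = 1.7e-12). At 36 h APF it was 0.18 ± 0.03 (adjusted p = 2.0e-05), which did not pass without replicate 2 of 36 h. At 48, 60 and 72 h APF it did not pass. The late axis was below the early one (−0.16 ± 0.03, adjusted p = 1.6e-05). At 24 and 36 h APF *PlexB* was therefore higher in a,b, while its ligand gene *Sema2b* was lower there on average. At 60 and 72 h APF *Sema2b* and *Sema2a* were higher in a,b on average, while no difference of *PlexB* passed.

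*Ephrin* (chromosome 4, 571755 to 580122) had 160 to 355 CPM with a median of 264 CPM, and 238 and 245 CPM at 24 h, 288 and 243 CPM at 36 h, 317 and 272 CPM at 48 h, 270 and 255 CPM at 60 h, and 244 and 251 CPM at 72 h APF. Over all cells its 72 h against 24 h APF difference passed at 0.60 ± 0.18 (edgeR adjusted p = 0.018), but it was 0.04 ± 0.18 when scaled to total UMIs (adjusted p = 0.88).

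Between the classes *Ephrin* had a pattern of its own. It was at 257 and 261 CPM in a,b at 24 h APF, against 214 and 225 CPM in c,d. At 36 h APF it was at 321 and 274 CPM in a,b, against 252 and 210 CPM in c,d. In both stages no a or b class overlapped with a c or d class within a library. At 72 h APF the order of the averages was the reverse, with 223 and 234 CPM in a,b, against 274 and 268 CPM in c,d. Of the a and b classes only b lay below c,d there. In the stage means T4a had 265 CPM and T5a 285 CPM, against 259 to 282 CPM in the c and d classes. The fitted difference was 0.21 ± 0.03, 0.36 ± 0.03 and 0.22 ± 0.03 at 24, 36 and 48 h APF, did not pass at 60 h APF, and was −0.20 ± 0.03 at 72 h APF (edgeR, adjusted p = 2.6e-07). The late axis was below the early one (−0.35 ± 0.03, adjusted p = 2.5e-17).

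The b classes changed their place in the order of *Ephrin* levels. T4b was at 264 and 265 CPM at 24 h, 321 and 287 CPM at 36 h, 355 and 277 CPM at 48 h, 238 and 230 CPM at 60 h, and 193 and 190 CPM at 72 h APF. T5b was at 245 and 267 CPM at 24 h, 344 and 281 CPM at 36 h, 303 and 246 CPM at 48 h, 224 and 191 CPM at 60 h, and 160 and 185 CPM at 72 h APF. The b classes were the lowest 2 of each library at 72 h APF, whereas T5b was the highest class in the mean of the 36 h libraries. The a over b difference of *Ephrin* was 0.51 ± 0.04 at 60 h (adjusted p = 6.7e-16) and 0.59 ± 0.04 at 72 h APF (adjusted p = 8.9e-18). At 72 h APF *Ephrin* was at 269 and 281 CPM in a, against 177 and 188 CPM in b. The a over b axis exceeded that of the early stages by 0.52 ± 0.04 (adjusted p = 8.0e-18). These values held in all alternatives, with 0.43 to 0.56 at 60 h and 0.57 to 0.59 at 72 h APF.

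**Figure D3:**
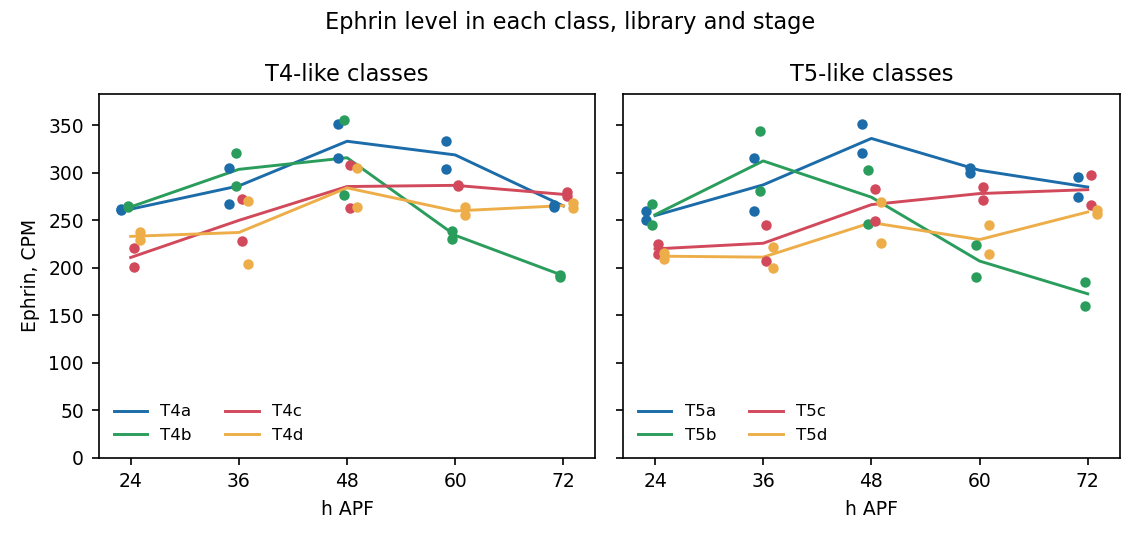
*Ephrin* in CPM (y, from 0) against stage in h APF (x), for the T4-like classes on the left and the T5-like classes on the right. Each point is the sum of 1 class in 1 library and lines join the means of the 2 libraries. The b classes are among the highest at 36 h APF and the lowest at 72 h APF, where they have 160 to 193 CPM and the other classes 256 to 298 CPM.

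*Eph* (chromosome 4, 610684 to 622470), the receptor of Ephrin, was, of the 8 tested genes, the one on which the libraries of a stage differed most. It was at 260 and 241 CPM at 24 h, 360 and 221 CPM at 36 h, 387 and 173 CPM at 48 h, 217 and 256 CPM at 60 h, and 376 and 154 CPM at 72 h APF. The replicates differed by 2.24 times at 48 h and by 2.44 times at 72 h APF, and no stage change of *Eph* passed. The log2 ratios of the replicates had an SD over 4199 genes of 0.203, 0.585 and 0.763 in the 24, 48 and 72 h libraries. In the stage means the highest class exceeded the lowest by 1.105 to 1.146 times. The classes were farther apart in 24 h replicate 2, where T5b had 277.6 CPM and T5c 226.2 CPM of *Eph*. It was lower in T4 than in T5 on average (−0.07 ± 0.01, edgeR adjusted p = 2.7e-06), and in all 10 libraries. No other axis of *Eph* passed on average, whereas all 5 axes of *Ephrin* did. The c over d value of *Ephrin*, 0.07, passed in only 8 of 19 alternatives. Its values for T4 over T5 and for b,c over a,d were lost without the library block, as was the T4 over T5 value of *Eph*. Whether *Eph* and *Ephrin* differ in the axes that pass was not tested.

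**Figure D4:**
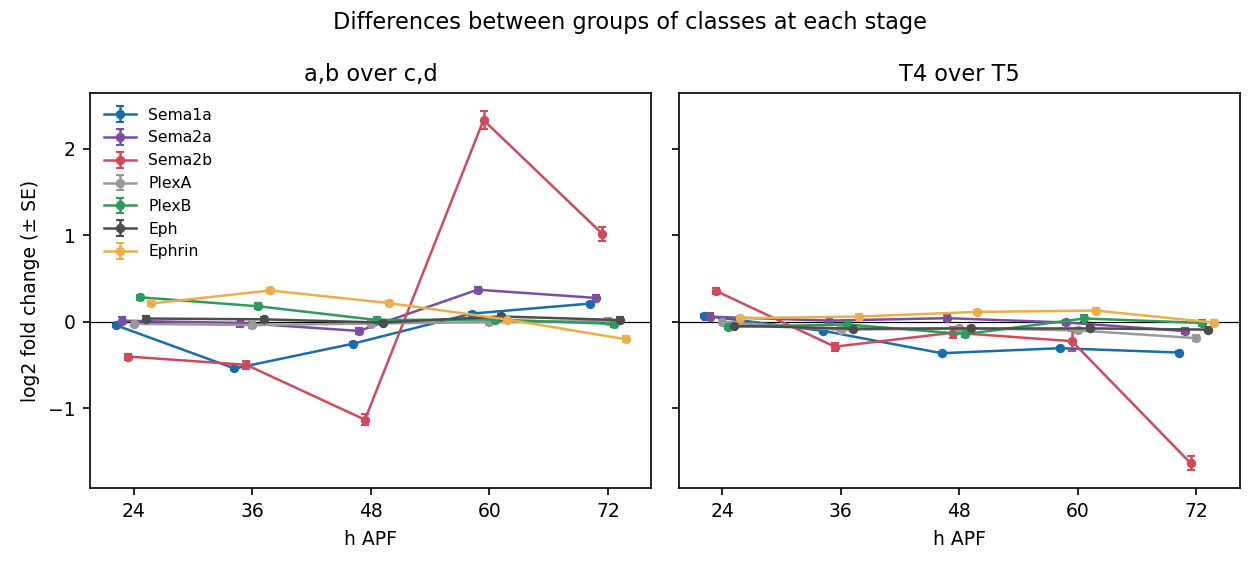
Log2 fold changes ± SE (y) against stage in h APF (x) for 7 of the genes (*Sema1b* and *Sema5c* are not shown), of a,b over c,d on the left and of T4 over T5 on the right. *Sema2b* moves from −1.13 at 48 h to 2.33 at 60 h APF on the left and reaches −1.64 at 72 h APF on the right, while the other genes stay within 0.54 of 0.

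Averaged over the stages, no gene of the families reached 2-fold on any of the 5 axes, where 1.67% of all gene and axis combinations were called. For T4 over T5, 6 of the 8 passed, against 43.3% of all tested genes, 1 of them higher (background 19.3%) and 5 lower (24.0%). For a,b over c,d 5 passed, against 31.1%, 4 of them higher (background 16.9%) and 1 lower (14.2%), and the median size of the difference was 0.10 for the 8 genes and 0.07 for all genes. The positive mean of *Sema2b* on this axis (0.26 ± 0.03) averages stages of opposite sign, and *Sema2b* was higher in a,b in only 4 of 10 libraries. For b,c over a,d 3 passed against 8.31%, for a over b 3 passed against 7.92%, and for c over d 2 passed against 5.93%. Of the 40 differences between late and early axes 16 passed, against 12.9% of all genes and axes. Ordered by mean CPM over the 10 libraries, *Sema1a* was highest in T5b, T5c, T5a and T5d and lowest in T4a and T4b. *Sema2b* was highest in T5c and lowest in T4b, *Sema2a* highest in T4a and lowest in T4c, *PlexA* highest in T5c and lowest in T4a, *PlexB* highest in T5a and lowest in T4c, *Eph* highest in T5b and lowest in T4a, and *Ephrin* highest in T5a and T4a and lowest in T5d. Over all 28 pairs of classes and the 8 genes, 111 of 224 differences passed, against 21.4% of all genes and pairs. Of the 56 pairs of neighbours in these orders, which are the pairs with the smallest gaps, 9 differed, and 5 of the 9 were pairs of *Sema2b*. The mean CPM of *Sema2b* is set mostly by the 24 and 36 h libraries. Its pair T4c over T5a had the opposite sign in the fit, which weights the stages equally (−0.80 ± 0.07, edgeR adjusted p = 2.7e-17). So did its top pair, T5c over T4a, though that difference did not pass (−0.08 ± 0.05, edgeR adjusted p = 0.29).

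**Figure D5:**
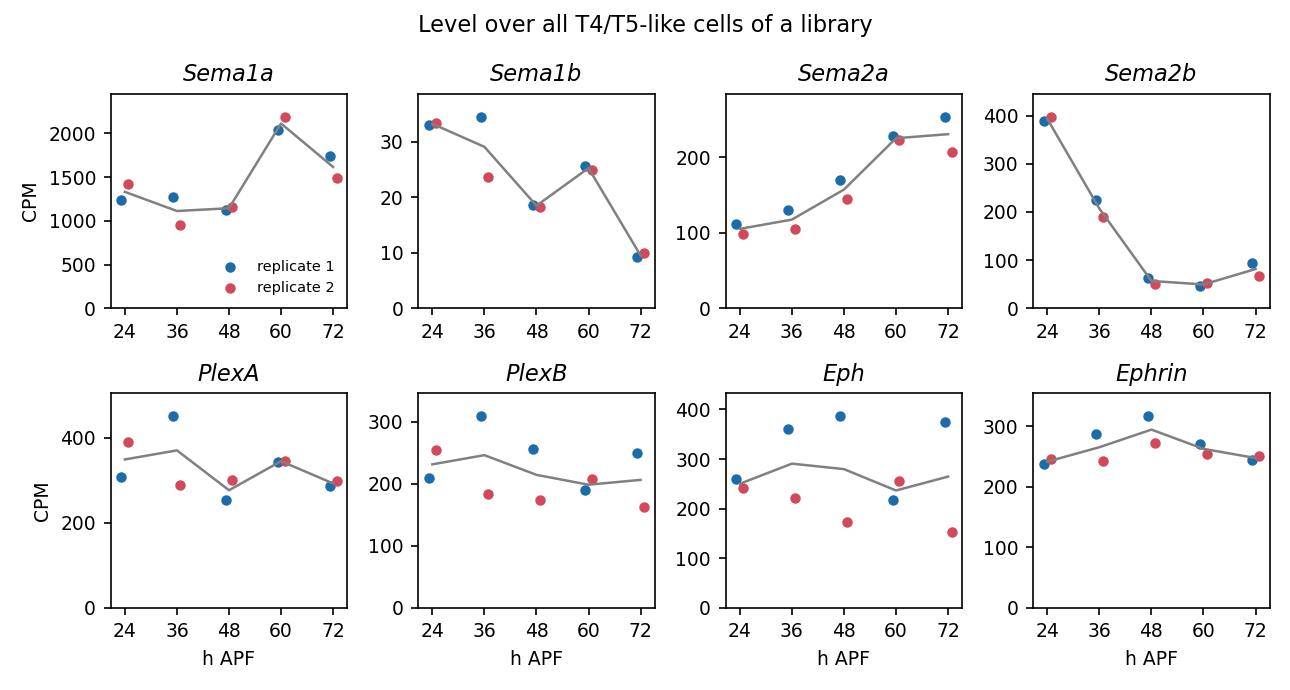
CPM over all T4/T5-like cells of a library (y, from 0) against stage in h APF (x), 1 panel per gene. Points are the 2 replicates and lines join their means. *Sema2b* lies highest at 24 h, *Sema2a* rises with stage, *Sema1a* lies highest at 60 h, and the replicates of *Eph* are far apart at 48 and 72 h APF.

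Between stages, 5 of the 8 genes passed for 72 h against 24 h APF and 3 were called, where 57.6% of 8213 tested genes passed and 42.3% were called, and the median log2 change was 0.51 for the 8 genes and 0.02 for all. With edgeR 0 of the 8 passed for 36 h against 24 h APF, where 4.24% of all genes passed. Only *Sema2b* had an unadjusted p under 0.05 there (−0.85 ± 0.25, edgeR adjusted p = 0.13), and it was the 1 gene of the 8 that passed with DESeq2 (adjusted p = 0.041). *Sema2b* alone passed for 48 h against 36 h (background 16.1%), *Sema1a* alone for 60 h against 48 h (18.1%) and *Sema1b* alone for 72 h against 60 h APF (8.78%). The scale matters for these contrasts. The TMM factors moved the median of all genes by 0.55 for 72 h against 24 h relative to scaling by total UMIs, and the called genes were higher in 50.5% of cases with TMM factors and in 29.6% without. On total UMIs *Sema2b* (−2.27), *Sema1b* (−1.80) and *Sema2a* (1.13) remained called for 72 h against 24 h APF.

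Partners and effectors of the same pathways were taken from lists of 25 semaphorin-plexin genes and 8 Eph-Ephrin genes. For T4 over T5, 9 of 23 tested semaphorin-plexin genes passed, against 43.3% of all tested genes, and 2 were called. Of the 9, 4 were higher (background 19.3%) and 5 lower (24.0%), and the median was −0.01 for the list and −0.02 for all genes. *nvy*, which encodes a PlexA-binding anchor of protein kinase A, was higher in T4 (1.31 ± 0.08, edgeR adjusted p = 1.2e-22), although in 6 of 10 libraries only. *pbl*, linked to Sema1a signalling, was higher in T4 (1.45 ± 0.33, adjusted p = 0.00015), with 453 UMIs in T4, against 127 in T5. For a,b over c,d, 12 of 23 passed, against 31.1% of all tested genes, and none was called. Of the Eph-Ephrin list 5 of 8 passed on each of these 2 axes, with the same backgrounds of 43.3% and 31.1%. Only *kuz*, which encodes a membrane metalloprotease of the ADAM family, was called, on the a,b over c,d axis and on the a over b axis. It was lower in a,b than in c,d (−1.12 ± 0.02, adjusted p = 3.5e-58) and lower in a than in b (0.355 times, adjusted p = 1.0e-53). Over the 10 libraries *kuz* had a median of 151.8 CPM in a, against 399.7 CPM in b, but it was higher in a in 3 of the 10, and higher in a,b than in c,d in 4 of the 10. The study lists *kuz* among the genes whose subtype pattern switched over time, and its differences at single stages are not given here.

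For 72 h against 24 h APF, 16 of 24 tested semaphorin-plexin genes passed (6 higher, 10 lower), and 13 were called (5 higher, 8 lower), where 42.3% of all genes were called. The median log2 change of the list was −0.29, against 0.02 for all genes. Largest were the falls of *otk* (−7.29), *otk2* (−6.33), *tsr* (−5.99) and *chic* (−3.95). *tsr*, the fly cofilin, had 22.3 and 29.2 CPM at 72 h, against 2280 and 2534 CPM at 24 h APF, and *chic*, the fly profilin, had 61.2 and 65.6 CPM, against 1514 and 1403 CPM. *otk*, a transmembrane partner of PlexA, had 2.10 and 2.20 CPM at 72 h, against 473 and 518 CPM at 24 h APF, and its paralog *otk2* had 1.05 and 0.440 CPM, against 69.3 and 86.0 CPM. *Abl*, a tyrosine kinase, had 173 and 225 CPM, against 855 and 931 CPM, and *nvy* had 8.25 and 14.5 CPM, against 140 and 104 CPM. The GTPase gene *Cdc42* (−1.34) fell as well.

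Called higher at 72 h APF were *SelR*, which reverses the oxidation of actin by Mical (1.27), *14-3-3zeta* (1.09), *pbl* (5.26), *cv-c* (2.47) and *Rac2* (1.94). *SelR* had 89.5 and 114 CPM at 72 h, against 64.0 and 60.3 CPM at 24 h APF, less than 2-fold in CPM. *pbl* had 15.9 and 4.77 CPM at 72 h, against 0.336 and 0.436 CPM at 24 h APF, with 6 and 19 UMIs at 24 h. *cv-c* was near the floor, with 1.54 and 0.785 CPM at 72 h, against 0.112 and 0.413 CPM (2 and 18 UMIs) at 24 h APF. It was higher at 48 h APF, with 6.25 and 3.28 CPM. *14-3-3zeta* overlapped between the stages in CPM, with 1886 and 951 CPM at 72 h, against 1017 and 1007 CPM at 24 h APF. Of the Eph-Ephrin list 3 of 8 passed, all higher, against 57.6% of all tested genes. *Exn*, the fly ephexin, which acts behind Eph, was the 1 of the 8 called, against 42.3% (2.71 ± 0.27, adjusted p = 6.3e-05) at 3.96 and 4.96 CPM, against 0.952 and 1.03 CPM.

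The genes whose profiles were most like those of the family members were found by Pearson's r over the 40 means of class and stage, among 4198 genes with at least 20 CPM. The points share libraries and stages and are not independent. *Sema2b* was closest to *Lim1*, a transcription factor of T4/T5 neurons (0.861), *CG42747* (0.859) and *CG42394* (0.857). *Sema1a* was closest to *Nlg4*, a neuroligin (0.844), *DopEcR*, a receptor of dopamine and ecdysone (0.840), and *Tsp97E*, a tetraspanin (0.832). *Sema2a* was closest to *CG17593* (0.966), *Atpalpha*, a subunit of the sodium pump (0.961), and *CG42327* (0.960). *Sema1b* was closest to *RpL22* (0.961), *eRF3* (0.936) and *RpS14b* (0.934), which encode parts of the translation machinery. *PlexA* was closest to *E(bx)* (0.941), *CG2225* (0.906) and *faf* (0.889). *PlexB* was closest to *l(3)L1231* (0.793), *Gadd45* (0.786) and *CG17841* (0.780), and *Eph* to *CG7065* (0.876), *Hsc70Cb* (0.872) and *Eip74EF* (0.856). *Ephrin* had no gene above 0.604 (*CG9636*), followed by *dan* (0.590) and *CG32206* (0.570). Among the 8 genes themselves the closest pair was *Sema1b* and *PlexA* (0.677), and *Sema2a* and *Sema2b* ran against each other (−0.631).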

How the data were processed

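The deposited files hold UMI counts per gene and barcode for each of 10 libraries (10x chemistry, Cell Ranger version 3), which the authors aligned to the *Drosophila* genome with GFP and split-Gal4 sequences added. The counts were neither normalized nor pooled. Barcodes with over 10% mitochondrial or heat-shock UMIs were dropped, and doublets were marked with Scrublet and left out. Cells of each stage were clustered in Seurat 5.3.0 (2000 variable genes, 15 components, Louvain resolution 0.8), and clusters were named from markers. The library and class sums were fitted with edgeR 4.0.16 (R 4.3.3, TMM factors, quasi-likelihood test), with the library as block between classes and with whole libraries between stages. Class names were rebuilt here, so differences from the study's classes are possible. Alternatives were DESeq2 1.42.0 (test and size factors), no filter on low counts, thinning to 2000 UMIs, doublets kept, other namings, no library block, a replicate block, single-stage fits and each library left out. The members and the partner lists were chosen with earlier results of these data known. Genes named are all 9 members, called partners except 1 that is not reported here, and the 3 genes most like each member. The edgeR scripts were tested on simulated data, in which 33 of 34 genes raised 2-fold between a,b and c,d were recovered. Those counts had the same spread for all genes and no differences between libraries other than size. They check the scripts and do not show how many genes are recovered in these libraries. Floors cover counting error only, whereas the SEs come from the quasi-likelihood fits and include the spread between the fitted sums. Median UMIs per barcode ranged between 2981 and 6929 over the libraries. Positions come from a later annotation release than the one the authors counted with.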

Additional observations from a re-analysis of the deposited data

Results flagged for a closer look

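Of 40 differences between the late (60 and 72 h APF) and the early (24, 36 and 48 h APF) axes, 16 passed edgeR's test of the difference itself. For a,b over c,d the change was 2.35 on the log2 scale for *Sema2b*, 0.43 for *Sema1a*, 0.36 for *Sema2a*, −0.16 for *PlexB* and −0.35 for *Ephrin*. For T4 over T5 it was −0.91 for *Sema2b*, −0.20 for *Sema1a*, −0.10 for *Sema2a*, −0.09 for *PlexA* and 0.09 for *PlexB*. Of these *Sema2b* passed in 19 of 19 alternatives and *Sema1a* in 18, whereas *PlexA* passed in 12, *PlexB* in 11 and *Sema2a* in 8, with the passes lost without single libraries among other settings. For a over b it was 0.54 for *Sema2b*, 0.52 for *Ephrin* and 0.20 for *Sema2a*. In both libraries of 72 h APF *Sema2b* was higher in T4a than in T4b but lower in T5a than in T5b. For b,c over a,d the change was −0.18 for *Sema2a* and −0.21 for *Ephrin*. For c over d it was 0.50 for *Sema2b*, which passed in 15 of 19 alternatives.

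Of 32 differences of a subtype axis between T4 and T5, 5 passed. For *Sema2b* the axis in T4 minus that in T5 was 0.57 for a,b over c,d, −0.70 for b,c over a,d, 0.74 for a over b and −0.66 for c over d. For *Sema1a* it was −0.15 for a,b over c,d.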

How the results depend on the processing

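Over 352 values of the 8 genes and 22 alternatives none changed its direction while passing, and 104 values passed. Of these 32 passed in every alternative, 38 were lost only without the library term and 34 in another alternative. Called genes without the filter on low counts numbered 527 for 36 h against 24 h APF (302 with it) and 845 for 72 h against 60 h APF (534 with it). Thinning to 2000 UMIs gave 40 for c over d, against 61. With 1 library left out the count ranged between 137 and 343 for 36 h against 24 h, between 567 and 1069 for 60 h against 48 h (995 with all), and between 214 and 742 for 72 h against 60 h APF. The lowest were without 24 h replicate 1 (137), 60 h replicate 2 (567) and 60 h replicate 1 (214). Scaling to total UMIs, chosen after seeing the data, gave 29.6% higher calls for 72 h against 24 h APF (50.5% with TMM factors), 45.1% for 48 h against 36 h (59.4%), 42.4% for 60 h against 48 h (53.7%) and 43.5% for 72 h against 60 h APF (54.7%). The causes were not tested.

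Without the replicate block, which here is the library, 6 of the 16 differences between late and early axes passed, 2 of the 5 between T4 and T5, and 3 neighbouring pairs differed, against 9 with it. The calls over all genes were then 185 for T4 over T5 (188 with it) and 215 for a,b over c,d (216 with it). Replicate numbers do not pair libraries in the same way across all stages. The correlation of the replicates' deviations over 10 pairs of stages ran between −0.668 and 0.844. It was 0.528, 0.601 and 0.844 among 36, 48 and 72 h APF. Between these stages and 60 h APF it was −0.573, −0.627 and −0.668. The libraries thus share deviations across stages, with the numbers reversed at 60 h, and the cause was not tested. A replicate block gave 3468 calls for 72 h against 24 h APF (3476 without it). Naming clusters by transcription factors alone left T4d at 48 h without cells, so 48 h values were not run there, and stages fitted alone give no mean over stages.

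With 2 libraries per stage, changes between stages are limited by the spread between replicates, which was widest at 72 h APF, and levels under the floor of 3 counts, as for *Sema5c*, cannot be told from 0.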
